A study of Rattus norvegicus with 2 samples.

Results

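The probes described here read the mature strands of miR-219 and miR-338, miRNAs known from oligodendrocytes, on arrays of rat NAc (nucleus accumbens). They were taken by name, as every probe whose name starts rno-miR-219 plus the probe rno-miR-338, without strands marked by an asterisk. This gave 4 of the 349 rat miRNA probes, rno-miR-338, rno-miR-219-5p, rno-miR-219-1-3p and rno-miR-219-2-3p. The probe for miR-338*, the other strand of the miR-338 hairpin, is given beside them for comparison and is not counted among them. The rule used no measured value, although the choice was made with earlier results of these data known.

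The animals were male Sprague-Dawley rats that the labels call adult, of 150 to 180 g at the start. The vehicle group received 500 µl saline and the alcohol group 1 g/kg alcohol, both by intraperitoneal injection 2 times a day, and the NAc with core and shell was taken after 7 days. The deposited data hold 1 array for each group. Each group held 9 rats, and the number of rats behind an array is not given in the sources used here. A difference between them therefore cannot be set against the spread of rats, no p-value is given, and treatment and array cannot be told apart.

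Oligodendrocytes wrap axons of the brain in myelin, and they arise from dividing progenitors that have to stop cycling before they make myelin. Both miRNAs are known to be induced as progenitors mature, and they lower transcripts that hold cells in the progenitor state, among them Pdgfra, Sox6 and Foxj3 for miR-219 and Sox6 and Hes5 for miR-338. A miRNA hairpin gives a strand from its 5′ side (5p) and a strand from its 3′ side (3p), and the seed, bases 2 to 8, leads the pairing with a target. In whole tissue, fewer cells of a type and less RNA per cell cannot be told apart.

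The sequences are shown because the 4 probes differ in seed and come from different arms and hairpins. Each is the target sequence listed for the probe, 5′ to 3′, with the seed in capitals.
miR-338: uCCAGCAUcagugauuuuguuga
miR-338*: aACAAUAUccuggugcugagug
miR-219-5p: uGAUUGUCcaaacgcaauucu
miR-219-1-3p: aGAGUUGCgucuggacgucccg
miR-219-2-3p: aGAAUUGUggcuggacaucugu

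All 5 sequences were found without a mismatch among the mature rat miRNAs of RefSeq on the genome build GRCr8, as were those of 289 of the 349 probes. miR-338 lies at chr10:105796345-105796367 on the minus strand, and miR-338* at chr10:105796381-105796402 in the same hairpin. The hairpin lies within the span of Aatk, a protein kinase gene on the same strand, and a further miRNA gene, Mir3065, covers the same place. Each of the other sequences comes from the miR-219 hairpins. miR-219-5p is held by both Mir219-2 and Mir219a1, at chr3:33516561-33516581 on the minus strand and at chr20:4831600-4831620 on the plus strand. Its probe therefore cannot tell the 2 genes apart.

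The 3p strands separate the genes. miR-219-2-3p comes from chr3:33516517-33516538 on the minus strand. That place lies in the span of the protein-coding gene Cercam on the plus strand and of a lncRNA gene on the minus strand. A further miRNA gene, Mir2964, covers it as well. miR-219-1-3p comes from chr20:4831641-4831662 on the plus strand, where no other listed gene covers it. Over their 22 bases the 3p strands match at 15 and differ at 7, of which 2 lie in the seed (G4A and C8U, counted from the 5′ end, with the base of miR-219-1-3p first). For each of them the closest other sequence on the array was the other 3p strand. No other probe shared a seed with any of the 5. GC content was 39.1% for miR-338, 38.1% for miR-219-5p, 45.5% for miR-219-2-3p and for miR-338*, and 63.6% for miR-219-1-3p, against a median of 47.6% over the 349 probes. That of miR-219-1-3p was high, with 93.7% of the probes at or below it.

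Each probe was printed as 9 spots on an array, and the raw values are pixel densities averaged over a spot, with background still included. Background differed between the arrays. The 88 spots of mismatched control probes read 241 at the median for vehicle and 145 for alcohol. A spot passed when it lay over 3 median absolute deviations above that level, at 278 for vehicle and 179 for alcohol, and detection required 5 or more passing spots. The vehicle array had 151 detected miRNAs and the alcohol array 196, of which 150 were shared and 46 were found with alcohol only. Typical density of the 150 was 952 and 1951 (medians), and the coefficient of variation of raw density over repeat spots had a median of 9.10% and 6.38%. Signals compared between the arrays were background-corrected and normalized by cyclic loess, a smooth curve fitted to the difference between the arrays along the signal. The SD given with a ratio is over the 9 pairs of spots at the same position and is technical. It was taken after background correction and before cyclic loess, which was applied to the probe averages.

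The 4 probes gave different results. miR-219-2-3p was well above background on both arrays. miR-338 was at background on the vehicle array and clearly above it on the alcohol array. miR-219-5p passed detection on the alcohol array only, close to the threshold, and miR-219-1-3p was at background on both. A miRNA was called higher or lower when the arrays differed 1.3-fold or more and the brighter of them gave 400 or more after normalization, and of the 4 only miR-338 met this. Among all 349 probes 9.46% were called higher and 7.45% lower. Of the 125 miRNAs that passed detection and the signal minimum, miR-338 and miR-219-2-3p among them, 26.4% were called higher and 20.8% lower on the alcohol array.

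**Figure D1:**
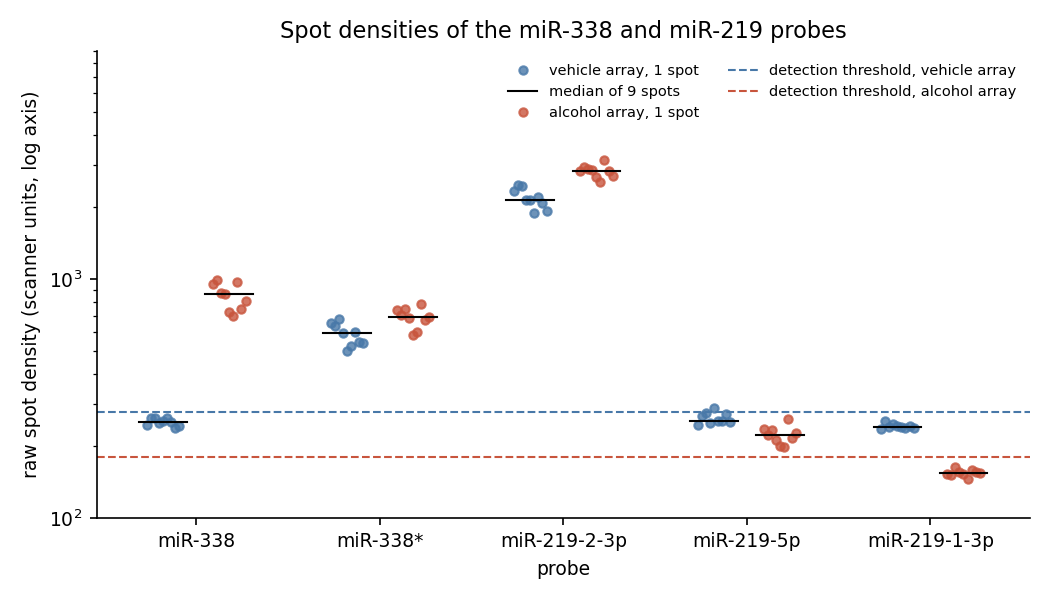
Raw spot density in scanner units on a log axis for the 4 probes and for miR-338*, with 1 point for each of the 9 spots on the vehicle array (blue) and the alcohol array (red), a bar at the median of the spots and a dashed line at the detection threshold of each array (278 and 179). The alcohol spots of miR-338 lie between 701 and 992 and its vehicle spots between 238 and 262, below the vehicle threshold.

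miR-338 was the member with the largest difference. On the vehicle array the lowest of its 9 spots read 238, the median 251 and the highest 262, so that none passed the threshold of 278. On the alcohol array the lowest spot read 701, the median 863 and the highest 992, and all 9 passed. The spots of the arrays did not overlap, which was the case in that direction for 23.8% of the 349 probes. Set against the median of the mismatched controls, the median spot stood 10.2 units above background on the vehicle array and 718 units above it on the alcohol array.

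After background correction and cyclic loess miR-338 gave 177 for vehicle and 548 for alcohol. The log2 ratio of alcohol over vehicle was 1.63 ± 0.22 (SD over 9 spots). Since no vehicle spot passed detection, its ratio is called a bound, 3.09-fold higher with alcohol in this processing. It equals the measured ratio and is no strict lower limit. The bound was taken against its own vehicle signal, which exceeded the lowest detected vehicle signal of 137. It was not taken against the detection threshold, and a vehicle level just below that threshold would give a smaller fold.

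The direction of miR-338 was the same in each of 16 other ways of processing, with measured log2 ratios from 1.12 without background correction to 3.40 in the authors' processed values. The bound recomputed in each ranged from 2.17-fold to 6.48-fold. It was taken against the larger of the vehicle signal of miR-338 and the lowest detected vehicle signal. In some settings it was therefore below the measured ratio. The measured ratio lay 1.70 above the median log2 ratio of the 150 shared miRNAs, a distance that a constant factor between arrays cannot change, and between 1.16 and 3.48 above it in the other settings.

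Passing detection on the alcohol array only was in itself common, at 13.2% of all probes, and both miR-338 and miR-219-5p were among these 46. Few of the 46 were bright. Only miR-204, miR-338 and miR-384-3p reached 400 after normalization, with 548 for miR-338. On the alcohol array miR-338 ranked 95 among the 349 probes in brightness, a rank that also depends on the probe.

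Base composition moved with the ratios. Over the 150 shared miRNAs, which come from the same pair of arrays, the ratio was lower at higher GC content, with a Pearson r of -0.42 after cyclic loess and -0.27 without normalization, given as a description. The 25 of them with a GC content no higher than that of miR-338 had ratios from -0.30 to 3.67 with a median of 0.35, and 2 of the 25 exceeded miR-338. The part of base composition in the difference of miR-338 was not tested.

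The spots of miR-338 lay in 3 blocks of 3 along the array. Their mean on the alcohol array was 938 in the upper block, 763 in the middle block and 839 in the lower block, and on the vehicle array 256, 255 and 244. The difference between the arrays was thus present in each block, and larger than the spread between blocks. The middle block was also the dimmest on the alcohol array for miR-338* and miR-219-2-3p.

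The other strand of the same hairpin behaved differently. The 9 spots of miR-338* read 497 to 677 for vehicle, median 592, and 581 to 785 for alcohol, median 689. All 9 spots passed detection on both arrays, and the ranges overlapped. Cyclic loess left 681 for vehicle and 413 for alcohol, a log2 ratio of -0.72 ± 0.11 (SD over 9 spots), which is called lower. This direction depended on the scaling. The log2 ratio was 0.44 without normalization between the arrays, 0.75 when they were scaled to the 5S rRNA probes and 0.45 when they were scaled to the calibration spikes, and below 0 in the other 13 settings.

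The distance between the strands depended less on the scaling. The log2 ratio of miR-338 exceeded that of miR-338* by 2.35 ± 0.24 (SD combined from the spots of both), and by 1.71 to 4.42 in the 16 other settings. It was 2.17 without normalization and under each constant scaling of the arrays. Since miR-338 was at background on the vehicle array, this distance rests on a vehicle signal that did not pass detection. The SD covers spots of 1 array per group and not rats. A lower signal of miR-338* itself with alcohol was seen only under some scalings.

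**Figure D2:**
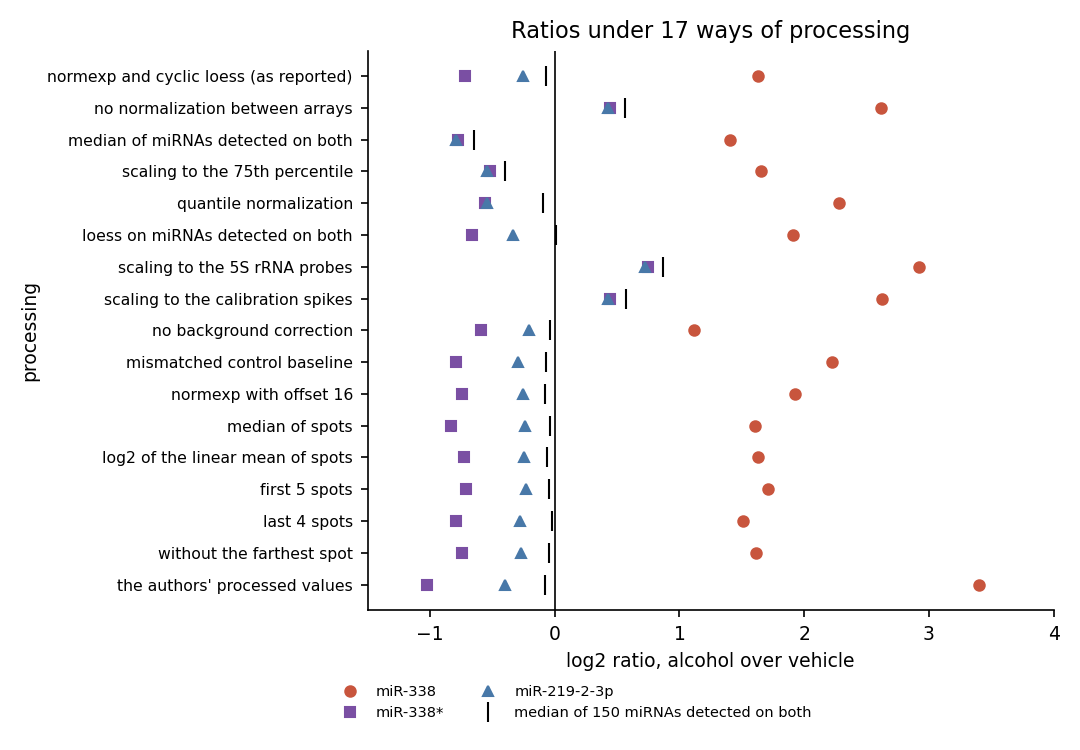
Log2 ratio of alcohol over vehicle for miR-338 (circles), miR-338* (squares) and miR-219-2-3p (triangles) under the reported processing, at the top, and 16 others, with the median of the 150 shared miRNAs as a black tick. miR-338 lies between 1.12 and 3.40 throughout, whereas miR-338* and miR-219-2-3p change sign with the scaling of the arrays and stay below the tick.

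For miR-219-2-3p all 9 spots passed detection on each array. Its lowest spot read 1886, its median 2142 and its highest 2475 on the vehicle array. On the alcohol array the lowest read 2537, the median 2823 and the highest 3152. In raw density all alcohol spots therefore lay above all vehicle spots, as for 23.8% of the 349 probes. Cyclic loess, however, gave 2584 for vehicle and 2170 for alcohol, a log2 ratio of -0.25 ± 0.11 (SD over 9 spots), which did not reach 1.3-fold.

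The sign of this ratio depended on the processing. It was 0.43 without normalization, 0.73 with scaling to the 5S rRNA probes and 0.43 with the calibration spikes. It was below 0 in the other 13 settings, at the least -0.79 with scaling to the median. Against the median of the 150 shared miRNAs, miR-219-2-3p lay 0.18 lower in the reported processing and 0.14 to 0.45 lower in the others. Thus no change of miR-219-2-3p between the groups could be settled, and a difference of the size of that of miR-338 was not measured for it in any of the settings run. Its signal ranked 57 for vehicle and 65 for alcohol.

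miR-219-5p, the strand for which most of the known roles of miR-219 were described, was dim. Its vehicle spots read 245 to 287, median 255, and 1 of 9 passed the threshold. On the alcohol array they read 198 to 259 with a median of 223, and all 9 passed the threshold of 179 there. The ranges overlapped, and in raw density the alcohol spots were lower at the median. Above the mismatched controls the median spot stood 13.5 units for vehicle and 77.9 units for alcohol.

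After cyclic loess the signals of miR-219-5p were 144 and 145, both under the minimum of 400. The log2 ratio was 0.0040 ± 0.26 (SD over 9 spots), and the bound against its own vehicle signal was 1.00-fold, so no fold is given. Ratios of the other settings ran from -1.04 to 0.48, above 0 in 12 of the 16. Neither a difference nor its absence could be read for miR-219-5p at this signal.

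miR-219-1-3p, the 3p strand of the other miR-219 gene, was not above background on either array, with 0 of 9 spots over the threshold on each. The median spot read 241 for vehicle and 154 for alcohol, against 241 and 145 for the mismatched controls. All alcohol spots lay below all vehicle spots, as for 55.9% of the 349 probes, most of which were dim. No fold is given. The rule from empty spots, which sets the threshold at 234 for vehicle and 193 for alcohol, called all 4 probes detected on the vehicle array, as it did 348 of the 349 miRNAs. On the alcohol array it called all but miR-219-1-3p.

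The 3p strand of Mir219-2 was detected on both arrays and that of Mir219a1 on neither, and the 5p probe was near background. The brightness of different probes was not compared as amounts.

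**Figure D3:**
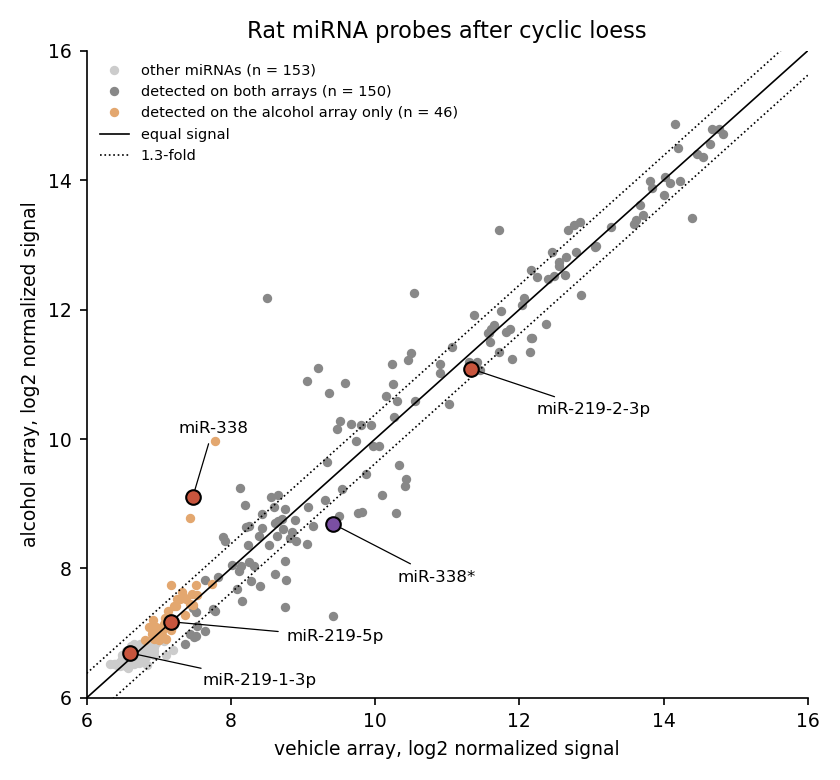
Log2 normalized signal of the 349 rat miRNA probes on the vehicle array (x) and the alcohol array (y) after cyclic loess, with equal signal as a solid line and 1.3-fold as dotted lines. miR-338 lies above the upper dotted line at the dim end of the vehicle array, miR-338* below the lower one, and miR-219-2-3p, miR-219-5p and miR-219-1-3p between them.

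The miRNAs whose pair of signals was nearest to that of each probe were found by the distance between log2 signals over the 2 arrays. For miR-338 the nearest was miR-384-3p at a distance of 0.32, itself at background with vehicle, with signals of 172 and 440. The next were miR-101a, miR-181d, miR-148b-3p and miR-181c, at 0.67 to 0.82, each detected on both arrays. Their log2 ratios, 0.50 to 1.12, were below the measured 1.63 of miR-338. For miR-219-2-3p the nearest were miR-187, miR-181b, miR-383, miR-384-5p and miR-329, with log2 ratios from -0.40 to 0.35. For miR-219-5p they were miR-299, miR-872*, miR-337, miR-326 and miR-300-5p, all detected on the alcohol array only. For miR-219-1-3p they were miR-423, miR-28*, miR-347, miR-17-3p and miR-500, none above background. A likeness over 2 arrays describes brightness only.

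Other miRNAs with a role in the oligodendrocyte lineage were taken from lists by name. Of 5 linked to differentiation, 4 were detected on both arrays. Among these 1 was called higher and 0 lower, beside 26.4% and 20.8% of the 125 miRNAs bright enough for a call. The median log2 ratio of the 4 was -0.09, beside -0.07 for the 150 shared miRNAs. miR-138, induced together with miR-219 and miR-338 in maturing oligodendrocytes, read 3284 for vehicle and 4024 for alcohol in mean raw density, with -0.18 ± 0.10 (SD over 9 spots) as the log2 ratio after cyclic loess. miR-23a, which is known to lower lamin B1 in these cells, was called higher at 0.44 ± 0.26, and its measured ratio was below 0 under 2 of the 16 other settings. miR-23b was at -0.00069 ± 0.11 and miR-7a at -0.23 ± 0.10. miR-32 was not above background on either array.

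Of 7 probes for the miR-17-92 cluster, which promotes division of progenitors, 3 were detected on both arrays. Among these 1 was called higher and 0 lower, again beside 26.4% and 20.8% of the 125 miRNAs bright enough for a call. The median log2 ratio of the 3 was 0.05. The member called higher was miR-92a, at 0.69 ± 0.36 (SD over 9 spots), with a ratio above 0 in all 16 other settings. No miRNA of either list differed by as much as miR-338. Without normalization the medians of the lists were 0.20 and 1.16, beside 0.57 for the 150 shared miRNAs, so their signs rest on the scaling.

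The tissue and its other cell types were checked in the same way. All 7 neuronal miRNAs, such as miR-124 and miR-128, were detected on both arrays, with 3 called higher, 1 lower and a median log2 ratio of 0.03. Among the 125 miRNAs bright enough for a call 26.4% were called higher and 20.8% lower. The miRNAs called higher, miR-137, miR-218 and miR-9, fell below 0 in 2, 2 and 3 of the 16 other settings, the one called lower, miR-129, was above 0 in 3, and miR-9 had a spot SD of 2.57 on the log2 scale. The 3 vascular miRNAs were detected on both arrays, with 1 called higher, 0 lower and a median of 0.23. The medians of the neuronal and vascular lists were 0.38 and 1.20 without normalization and -0.83 and -0.013 with scaling to the median, so their signs rest on the scaling. Of 6 miRNAs of microglia and blood cells only miR-146a was detected, and 0 were called. miR-223, miR-142-3p, miR-142-5p, miR-144 and miR-451 were not above background on either array.

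miR-204, abundant in the choroid plexus, was the only miRNA listed for that tissue. Like miR-338 it was called higher, as were 26.4% of the 125 miRNAs bright enough for a call. The raw density of miR-204 was 276 ± 32.1 for vehicle, with 3 of 9 spots passing, and 1568 ± 263 for alcohol (SD over 9 spots each). Its own bound, taken in the same way and equal to its measured ratio, was 4.54-fold higher with alcohol. Any part of tissue from outside the NAc in the difference of miR-338 was not tested.

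**Figure D4:**
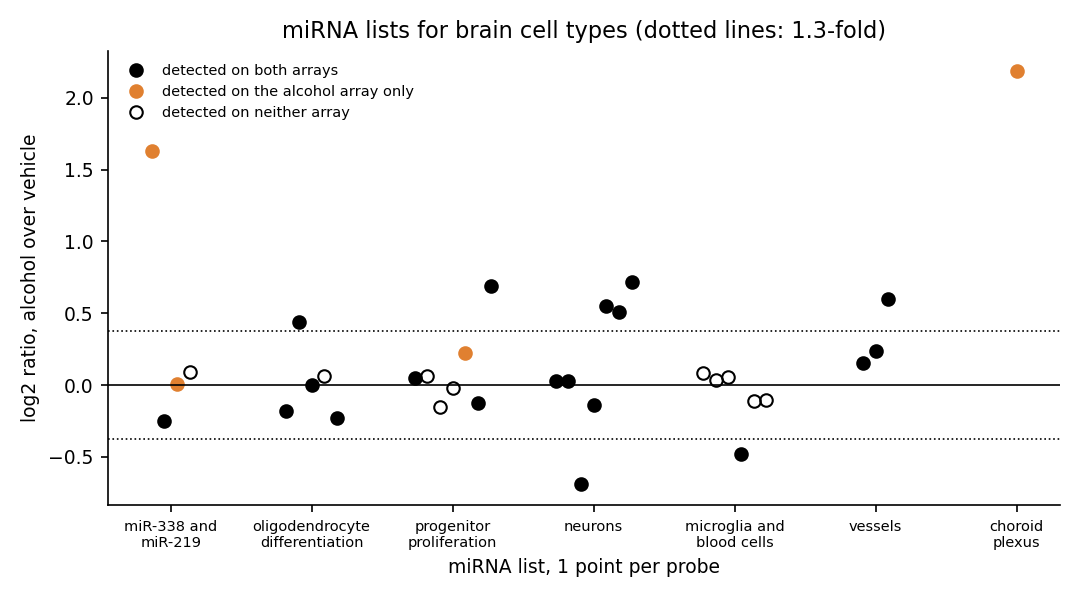
Log2 ratio of alcohol over vehicle after cyclic loess for the 4 probes and for the miRNAs of 6 lists, with 1 point per probe and dotted lines at 1.3-fold. Filled black points were detected on both arrays, orange points on the alcohol array only, so that their ratio is a bound, and open points on neither, which carry no fold. miR-338 at 1.63 lies above every point but miR-204 at 2.18.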

How the data were processed

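Small RNA from NAc was tailed, stained with Cy3 and hybridised to 1-colour LC Sciences arrays. Per the file headers, the authors deposited for each spot the intensity as mean pixel density, without background subtraction. They also deposited 1 processed intensity per probe, normalized by a cyclic method (its tool is not given in the sources used here). The processed values were used as an alternative.

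In R 4.3.3, limma 3.58.1 applied the normexp correction (offset 50) to all spots, since the files give no background column. Log2 values of the 9 spots were averaged, and the arrays were normalized by cyclic loess (span 0.7, 3 iterations) over 349 probes. Ratios are alcohol over vehicle. The number of arrays, 1 per group, limits the precision. Per-spot signal is scanner brightness, not molecules. In all, 16 other settings were run. On simulated arrays with 349 probes, 20 bright miRNAs were raised and 20 lowered 2-fold. Each was recovered, and 0 of 40 bright miRNAs left unchanged were called. The simulation held only spot noise and a smooth difference between the arrays, so it gives no rate of false calls for the real arrays. It did not cover miRNAs at background on an array, such as miR-338.

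The members, lists, detection rule and settings were chosen with earlier results of these data known. Named miRNAs are the 4 members, miR-338*, the 5 nearest to each member in signal, and members of the lists. From the lists for differentiation the brightest were named. The list members miR-32, miR-92a, miR-137, miR-218, miR-9, miR-129, miR-146a and those not above background, and the 3 bright miRNAs detected on the alcohol array only, were named after their values were seen. Only the arrays were analysed.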

Additional observations from a re-analysis of the deposited data

How the results depend on the processing

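No paired analysis was possible because there was 1 array in each group. The settings for miR-219-2-3p and for the distance between the strands of miR-338 were chosen after seeing the data. The log2 ratio of miR-338, 1.63, was 2.62 without normalization, 1.40 with scaling to the median, 2.28 with quantile normalization, 1.91 with loess on miRNAs detected on both arrays, 2.92 with 5S rRNA, 2.62 with spikes, 1.12 without background correction, 2.22 with the mismatched baseline, 1.93 with offset 16 and 3.40 in the authors' values. In the other 6 it moved by less than its spot SD.

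For miR-338*, -0.72, the sign turned to 0.44 without normalization, 0.75 with 5S rRNA and 0.45 with spikes. It was -0.52 with the 75th percentile, -0.56 with quantile normalization, -0.59 without background correction and -1.03 in the authors' values. For miR-219-2-3p, -0.25, it was 0.43 without normalization, 0.73 with 5S rRNA, 0.43 with spikes, -0.79 with the median, -0.54 with the 75th percentile, -0.54 with quantile normalization and -0.40 in the authors' values. For miR-219-5p, 0.0040, it was -1.04 with the median, -0.79 with the 75th percentile, 0.48 with 5S rRNA and 0.42 in the authors' values. The distance of miR-338 from miR-338*, 2.35, was 2.83 with quantile normalization, 1.71 without background correction, 3.01 with the mismatched baseline, 2.67 with offset 16 and 4.42 in the authors' values. The cause was not tested.

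In place of 33 higher and 26 lower calls there were 85 and 8 without normalization and with spikes, 17 and 79 with the median, 28 and 60 with the 75th percentile, 100 and 2 with 5S rRNA, and 11 and 5 at 2-fold. The share called higher, 55.9%, was 91.4% without normalization and with spikes, 17.7% with the median, 31.8% with the 75th percentile, 98.0% with 5S rRNA and 43.1% in the authors' values. Without the signal minimum, 36 were higher and 39 lower. By the rule from empty spots 9 of 9 vehicle spots passed for miR-338, against 0, and 9 of 9 for miR-219-5p, against 1. The brightness rank of miR-338 on the alcohol array, 95, was 95 in the authors' values and 94 without background correction, and that of miR-219-5p, 166, was 165 in both. The median log2 ratio of the 150 shared miRNAs was -0.07 with cyclic loess, 0.57 without normalization and with spikes, -0.65 with the median, -0.40 with the 75th percentile and 0.87 with 5S rRNA.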
